A study of Mus musculus with 6 samples.

Results

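The extracellular matrix is the protein and polysaccharide network around cells, and its glycoproteins and proteoglycans are the members other than collagens and laminins. A set of 42 mouse genes for such proteins was chosen with earlier results of these data known. It was taken by gene symbol from the 21959 genes of the count table, and every one of the 42 was found there. Of these, 25 had enough counts to be tested and 17 did not. Among the 25, 9 were higher in the paclitaxel (PTX)-resistant line than in its parent, against 14.1% of all tested genes, and 8 were lower, against 15.6%, while the most abundant transcripts of the set, those of Fn1, Thbs1 and Spp1, differed by less than 1 on the log2 scale.

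The study compared these lines to find transcripts that accompany PTX resistance. RNA was sequenced from MTC, a mouse gastric adenocarcinoma line labelled MPC in the deposited data, and from MTC-R, its PTX-resistant derivative labelled MPC-PTX, with 3 libraries per line. Both lines carry the genotype CDH1-/-;Trp53-/-. They go back to gastric organoids of Mist1-CreER floxed C57BL/6J mice that were grown under the skin of BALB/c nude mice, and both were taken through monoclonal selection, so that each line is a clone. MTC received no drug and MTC-R received over 30 cycles of PTX, a drug that stabilises microtubules; both were grown in RPMI 1640 medium with serum. The labels do not say that the 3 libraries of a line came from separate cultures, so p-values measure the spread between these libraries, which may be technical, and resistance, clone and time in culture cannot be told apart.

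Matrix glycoproteins are secreted modular proteins that bind to each other, to growth factors and to cell surface receptors such as integrins and syndecans. Proteoglycans carry long glycosaminoglycan chains on a core protein and bind water and growth factors through them. In carcinomas many of these proteins are made by fibroblasts of the stroma, but tumour cells make some of them as well.

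Several adhesive members share a short integrin-binding motif of arginine, glycine and aspartate. In the longest coding sequence of each gene in GENCODE M21 (GRCm38), in-frame codons for these 3 residues in a row were present in 18 of the 42 members and in 9 of the 25 tested members, against 8.62% of the 11732 tested genes that have a coding sequence. These shares were not adjusted for coding length, which reached 4383 codons in the member Hspg2. A match describes the sequence and does not by itself mark a binding site. The sites of the 3 most abundant members and of Tnn, the member that rose most, are shown with 30 bases on each side, 5′ to 3′ on the coding strand, and the capitals mark the 9 bases of the motif.
Fn1, codon 1614, motif at chr1:71606746-71606754, minus strand: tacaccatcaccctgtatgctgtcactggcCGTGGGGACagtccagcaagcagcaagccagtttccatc
Spp1, codon 145, motif at chr5:104439481-104439489, plus strand: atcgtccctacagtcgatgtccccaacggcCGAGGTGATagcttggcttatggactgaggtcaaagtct
Thbs1, codon 927, motif at chr2:118122882-118122890, plus strand: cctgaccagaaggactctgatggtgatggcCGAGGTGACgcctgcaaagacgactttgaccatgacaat
Tnn, codon 427, motif at chr1:160139286-160139294, minus strand: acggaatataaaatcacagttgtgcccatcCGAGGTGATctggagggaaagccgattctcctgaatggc
Fn1 held another match at codon 2181. Of the 9 tested members with a match, 4 were higher in MTC-R (Fn1, Spp1, Tnn and Hspg2), 1 was lower (Nid1) and 4 were not called (Thbs1, Fbln2, Fbln5 and Vwf), beside 14.1% higher and 15.6% lower among all tested genes. Nothing about members with a match was tested.

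The libraries held 16574580 to 23148182 counts, with 13897 to 14295 genes detected in each. Replicates of MTC spread more than those of MTC-R, with a biological coefficient of variation of 17.9% against 3.01%. No pair of replicates agreed within sampling noise, the lowest chi-square per gene being 1.84 for MTC-R replicates 2 and 3. MTC replicate 3 stood apart, at 60.7 and 32.2 from MTC replicates 1 and 2, which were at 14.9 from each other. Over 11776 genes its ratio to MTC replicate 1 fell with GC content (Spearman rho = -0.55, a description across genes). Without MTC replicate 3, 10 of 26 tested members were higher and 9 lower, beside 3020 and 3227 of 11896 genes. After a correction for GC content and transcript length 9 of 25 were higher and 7 lower, beside 2499 and 2288 of 11795 genes. The targeted genes were counted in both lines, Cdh1 with 2217 to 3068 counts and Trp53 with 63 to 142 counts per library, and counts per gene do not show which exons were deleted. The 10 epithelial markers were all measured and all lower in MTC-R, with a summed level of 10039 to 11600 CPM (counts per 1000000 counts of a library, with library sizes scaled by the TMM method) in MTC and 6115 to 6314 in MTC-R. The part of this fall in the results on matrix genes was not tested, and in bulk RNA fewer cells of a type and less RNA per cell cannot be told apart. Of the 15 gastric markers 5 could be tested, of which 4 were lower and 1 was higher. The list summed to 1077 to 1265 CPM in MTC and 616 to 623 in MTC-R, with Tff1, Tff2, Gkn2 and Pgc at 0 in every library. Of other cell types, the 12 fibroblast markers summed to 9.99 to 10.9 CPM in MTC and 9.14 to 10.0 in MTC-R. Of these, 2 could be tested: Col1a1, at a mean of 4.55 CPM, was lower (log2 fold change -0.80), and the other was not called. Thy1 and Fap were at 0 to 2 counts and Tcf21 at 0. The 8 endothelial markers summed to 2.48 to 3.19 CPM. The 9 leukocyte markers summed to 11.4 to 12.8 CPM in MTC and 9.92 to 10.8 in MTC-R. Of the 5 mesothelial markers Msln alone could be tested, and it was lower, with the list at 460 to 517 CPM in MTC and 296 to 315 in MTC-R.

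Together the 42 genes took 0.649% to 0.731% of all counts in the MTC libraries and 0.824% to 0.841% in the MTC-R libraries. Their summed level was 6676 to 7389 CPM in MTC and 8149 to 8286 CPM in MTC-R, so that the lines did not overlap. A few genes made up nearly all of this sum. Fn1, Thbs1 and Spp1 held 80.0% to 82.2% of the set's counts in MTC and 85.5% to 85.7% in MTC-R. Fn1 alone held 31.7% to 33.7% in MTC and 38.1% to 38.4% in MTC-R. The summed level of the other 39 genes went the other way, from 1315 to 1374 CPM in MTC to 1184 to 1193 CPM in MTC-R. That is a fall of the sum alone, since some of these genes were called higher and others lower, as given below.

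**Figure D1:**
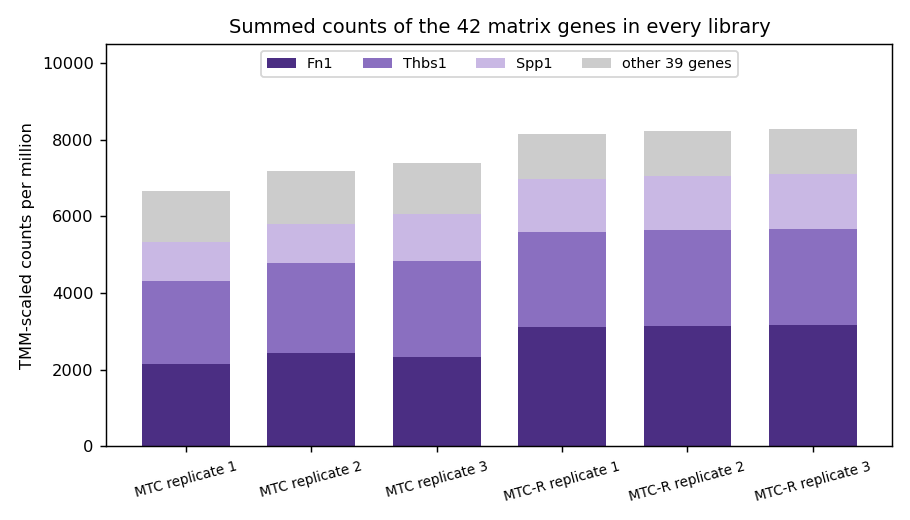
Summed TMM-scaled CPM of the 42 matrix genes in each of the 6 libraries, stacked as Fn1, Thbs1, Spp1 and the other 39 genes, with the bar starting at 0. The MTC bars reach 6676 to 7389 and the MTC-R bars 8149 to 8286, and the lowest segment, Fn1, is taller in each MTC-R bar.

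The quasi-likelihood test of edgeR was run on 11795 genes, with p-values adjusted after Benjamini and Hochberg. At an adjusted p below 0.05, 9 of the 25 tested members were higher in MTC-R, against 14.1% of all tested genes, and 8 were lower, against 15.6%. By the rule of the study, a change beyond 1 on the log2 scale and p below 0.05 before adjustment, 4 were higher (Tnn, Fbln1, Ltbp2 and Sparc), against 3.77% of all tested genes, and 4 were lower (Spon2, Nid1, Ltbp1 and Efemp2), against 4.34%. All 8 passed the adjusted limit too. Spon2, Nid1 and Fbln1 had enough counts only through the line where they were high. With 10 counts required in every sample these were not tested, and by the rule of the study 3 members were higher and 2 lower. All genes were not counted by that rule under this filter. At the adjusted limit 8 of 20 tested members were then higher and 6 lower, beside 1256 and 1737 of 11109 genes. The 3 MTC-R libraries lay above the 3 MTC libraries for 10 members, against 24.2% of all tested genes, and below them for 9, against 22.7%. The median log2 fold change (log2FC, MTC-R over MTC) of the 25 was 0.08 and that of all tested genes 0.04, so that both lay near 0, whereas the median size of the change, regardless of direction, was 0.70 against 0.24. These figures describe the members that had enough counts and not all 42. Because the members were chosen with earlier results of these data known, the contrast with all genes describes this list. Whether it holds for matrix genes in general was not tested.

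**Figure D2:**
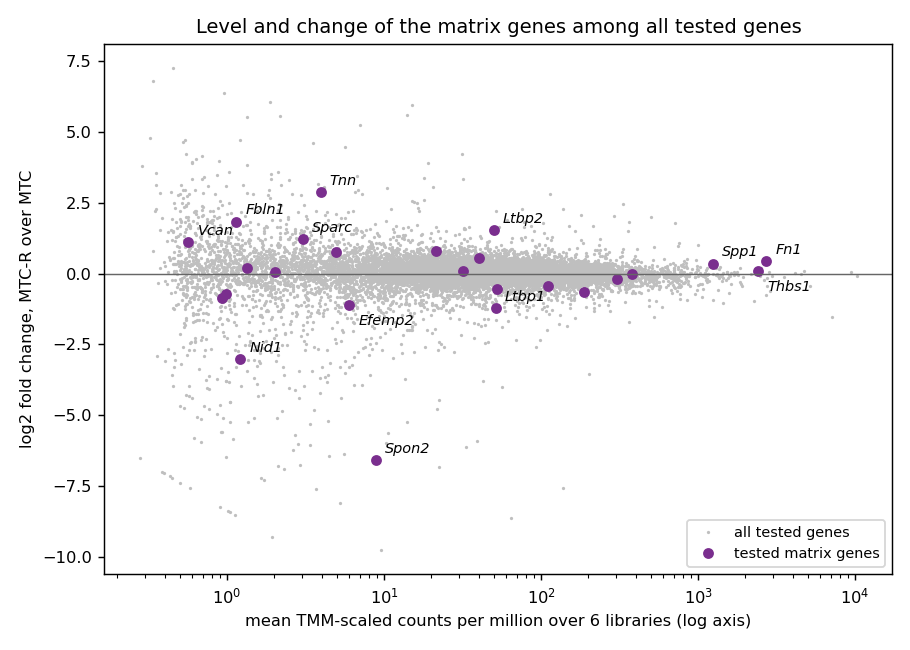
Log2FC (MTC-R over MTC) against the mean level over 6 libraries in TMM-scaled CPM (log axis), for 11795 tested genes in grey and the 25 tested matrix genes in purple; members with an absolute log2FC above 1 or a mean above 500 are named. The 3 most abundant members lie close to 0, and among the members Spon2 lies farthest from 0 at -6.59.

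Among the 7 adhesive glycoprotein genes 4 were tested; Fn1 and Spp1 rose, Ecm1 fell and Vwf was not called. Fn1 (ENSMUSG00000026193; GRCm38 chromosome 1, 71585520 to 71653200, minus strand) encodes fibronectin, which forms fibrils around cells and binds integrins through the motif shown above. Its level was 2152, 2425 and 2339 CPM in MTC replicates 1 to 3 and 3126, 3145 and 3157 CPM in MTC-R. Each MTC-R library exceeded each MTC library. The mean rose from 2305 ± 140 CPM to 3143 ± 15.8 CPM (SD, n = 3 each), with a log2FC of 0.45 and a standard error (SE) of 0.070 (adjusted p = 0.00337).

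Spp1 (ENSMUSG00000029304; chromosome 5, 104435118 to 104441050, plus strand) encodes osteopontin, a secreted phosphoprotein that binds integrins and CD44. It was at 1024, 1033 and 1233 CPM in MTC and at 1374, 1401 and 1423 CPM in MTC-R. The lines did not overlap, and MTC replicate 3 was the closest to MTC-R. Its log2FC was 0.35, with an SE of 0.086 (adjusted p = 0.0198). This call was lost without MTC replicate 2 or without any of the MTC-R libraries, with adjusted p from 0.0687 to 0.0877.

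Ecm1, for a secreted glycoprotein that binds other matrix proteins, fell from 62.2 ± 2.08 to 43.0 ± 1.36 CPM (SD, n = 3 each), with a log2FC of -0.53 (SE 0.069 and adjusted p = 0.00154). Vwf, the clotting glycoprotein of endothelium, had 10 to 33 counts per library and a log2FC of -0.70 that was not called (SE 0.36, adjusted p = 0.182). The rest of this group was barely measured: Vtn, for vitronectin, was at 0 in every library, Tgfbi had 0 to 2 counts, and Reln, for reelin, had 1 count over the MTC libraries and 11 over the MTC-R libraries. A count of 0 here allows up to 3 counts per library, that is 0.130 to 0.181 CPM, which covers counting error only.

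Matricellular proteins modulate contacts between cells and matrix more than they build it. Of 14 such genes 6 were tested, of which Tnn, Sparc and Thbs3 rose, Spon2 fell, and Thbs1 and Spon1 were not called. Tnn (ENSMUSG00000026725; chromosome 1, 160085029 to 160153580, minus strand) encodes tenascin-N, also called tenascin-W, an oligomeric glycoprotein known from bone and tumour stroma. MTC libraries had 15, 19 and 22 counts and MTC-R libraries 157, 152 and 122. In CPM these were 0.797, 0.980 and 1.06 against 6.71, 6.85 and 7.25, with a wide gap between the lines. The fitted log2FC was 2.86, with an SE of 0.16 (adjusted p = 4.28e-05), a 7.27-fold rise. The other tenascin genes stayed at trace levels, Tnc with 0 to 2 counts, Tnr with 1 count in each library and Tnxb with 1 to 8.

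The promoter of Tnn, the member that rose most, is shown with those of Ltbp1 and Ltbp2, described further on. The latter are of the same family and changed in opposite directions. RefSeq promoters (GRCm38.p6, 250 bases before to 50 after a transcription start) were matched by symbol for 30 of the 42 members. The letters GGGCGG, the core of a GC box, were searched on both strands with overlaps allowed and are in capitals, reading CCGCCC where they lie on the opposite strand.
Tnn, chr1:160153526-160153825, minus strand: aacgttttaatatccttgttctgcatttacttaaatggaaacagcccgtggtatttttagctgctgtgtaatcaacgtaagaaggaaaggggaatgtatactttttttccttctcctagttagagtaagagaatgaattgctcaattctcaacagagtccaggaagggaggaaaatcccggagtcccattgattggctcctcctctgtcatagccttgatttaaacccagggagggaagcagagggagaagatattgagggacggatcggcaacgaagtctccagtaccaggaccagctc
Ltbp1, chr17:75005279-75005578, plus strand: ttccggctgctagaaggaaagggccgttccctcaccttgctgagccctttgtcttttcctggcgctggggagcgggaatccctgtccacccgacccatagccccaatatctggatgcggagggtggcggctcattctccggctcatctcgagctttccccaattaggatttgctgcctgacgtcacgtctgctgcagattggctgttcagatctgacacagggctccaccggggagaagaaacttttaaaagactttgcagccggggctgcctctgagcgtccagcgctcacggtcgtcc
Ltbp2, chr12:84876442-84876741, minus strand: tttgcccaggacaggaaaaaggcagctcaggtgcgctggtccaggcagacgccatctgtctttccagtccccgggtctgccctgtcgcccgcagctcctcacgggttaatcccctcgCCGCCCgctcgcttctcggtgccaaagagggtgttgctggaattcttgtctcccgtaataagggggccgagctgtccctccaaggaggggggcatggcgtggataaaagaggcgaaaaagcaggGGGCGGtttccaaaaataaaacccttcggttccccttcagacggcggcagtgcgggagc
The Ltbp2 promoter held 2 matches, and those shown for Tnn and Ltbp1 held 0. Of members not shown, Nid1, which fell more than Ltbp1, held 1 match. The promoters of Fbln1, which rose more than Ltbp2, held 0 and 2. GC content was 44.3% for Tnn, 58.7% for Ltbp1 and 61.0% for Ltbp2, against a median of 52.7% over 32851 RefSeq promoters. At least 1 match was present in 25 of the 41 promoters of the 30 members and in 35.7% of all promoters. By gene, at least 1 promoter held a match in 19 of the 30 members, in 4 of the 7 members with a promoter that were higher and 5 of the 7 that were lower. A share by gene was not taken over all genes, and the 35.7% is by promoter. The figures are not comparable, since a gene with several promoters can match through any of them. Ltbp1 has another RefSeq start, at chr17:75178531-75178830, with no match.

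Spon2 (ENSMUSG00000037379; chromosome 5, 33198184 to 33218455, minus strand) encodes spondin-2, or mindin, a secreted protein that binds integrins and bacterial surfaces. Counts were 322, 380 and 331 in MTC and 5, 3 and 3 in MTC-R. MTC held 17.1, 19.6 and 15.9 CPM and MTC-R 0.214, 0.135 and 0.178 CPM, so the transcript was close to the limit of detection in the resistant line. This gave a log2FC of -6.59 (SE 0.20 and adjusted p = 8.81e-06). From the pooled counts, 1033 against 11, the level in MTC was 99.3 times that in MTC-R, with an exact 95% interval of 55.3 to 199.6 for counting error. The 24 tested genes within 1 Mb of Spon2 had a median log2FC of 0.12. Its relative Spon1 had 28 to 48 counts per library with overlapping lines and a log2FC of 0.05 (SE 0.22 and adjusted p = 0.888).

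Thbs1 (ENSMUSG00000040152; chromosome 2, 118111876 to 118127133, plus strand) encodes thrombospondin-1, which binds CD36 and CD47 and can activate latent TGF-beta. It was at 2165, 2358 and 2503 CPM in MTC and at 2465, 2496 and 2519 CPM in MTC-R. The ranges overlapped, and MTC replicate 3 lay within the MTC-R range. The log2FC of 0.09 was not called (SE 0.073, adjusted p = 0.390).

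Thbs3 (ENSMUSG00000028047; chromosome 3, 89215180 to 89226837, plus strand), for a pentameric thrombospondin, was far less abundant. It was at 3.77, 3.20 and 4.04 CPM in MTC and 5.98, 6.22 and 6.59 CPM in MTC-R, without overlap. The change amounted to a log2FC of 0.77 (SE 0.14 and adjusted p = 0.00653). Its exons share 318 bases with Mtx1 on the opposite strand, and since the counting is not stated to use strand, reads of the pair cannot be told apart. Thbs2, Thbs4 and Comp, the remaining thrombospondin genes, had 0 to 12 counts per library.

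Sparc (ENSMUSG00000018593; chromosome 11, 55394500 to 55423183, minus strand) encodes osteonectin, a collagen-binding glycoprotein. Its counts were 39, 35 and 35 in MTC against 104, 97 and 67 in MTC-R, or 2.07, 1.80 and 1.68 against 4.44, 4.37 and 3.98 CPM. The lines did not overlap. The log2FC was 1.21, with an SE of 0.16 (adjusted p = 0.00168). Sparcl1 had 1 to 8 counts per library and Postn, for periostin, 0 to 3.

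**Figure D3:**
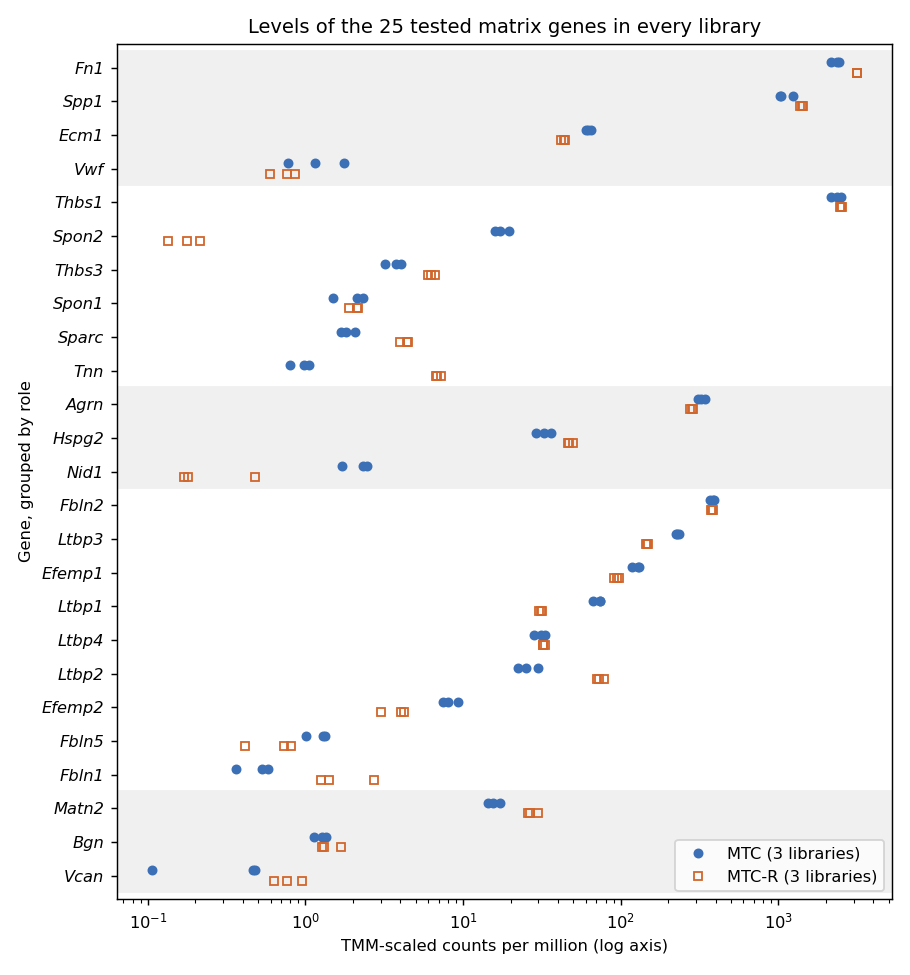
Level of each of the 25 tested matrix genes in TMM-scaled CPM (log axis), with MTC libraries as filled circles and MTC-R libraries as open squares, in bands by role. Fn1, Thbs1 and Spp1 lie between 1024 and 3157 in every library, and the squares of Spon2 and Nid1 lie below 0.5 while their circles lie above 1.5.

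The basement membrane genes moved in different directions, with 3 of 4 tested, 1 higher and 2 lower. Nid1 (ENSMUSG00000005397; chromosome 13, 13437551 to 13512269, plus strand) encodes nidogen-1, which links laminin and collagen IV networks. Its counts were 46, 33 and 48 in MTC and 4, 4 and 8 in MTC-R, or 2.44, 1.70 and 2.31 against 0.171, 0.180 and 0.475 CPM. Every MTC-R library was below the MTC range. Its log2FC was -3.02 (SE 0.39 and adjusted p = 0.00144), and pooled counts of 127 against 16 gave a ratio of 8.39 with an exact 95% interval of 4.97 to 15.1. Nid2, the other nidogen gene, had 0 to 3 counts per library.

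Hspg2 (ENSMUSG00000028763; chromosome 4, 137468769 to 137570630, plus strand) encodes perlecan, the large heparan sulfate proteoglycan of basement membranes. It was at 28.8, 32.4 and 36.0 CPM in MTC and 46.4, 47.1 and 49.9 CPM in MTC-R. All MTC-R libraries were higher. The fitted log2FC was 0.56, with an SE of 0.098 (adjusted p = 0.00552), and it was 0.93 after a correction for GC content and transcript length.

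Agrn (ENSMUSG00000041936; chromosome 4, 156165290 to 156197488, minus strand) encodes agrin, another heparan sulfate proteoglycan, known as an organiser of the neuromuscular junction. Its level was 342.8, 323.8 and 308.5 CPM in MTC and 287.6, 284.4 and 275.2 CPM in MTC-R. The lines did not overlap, but the gap was narrow. This gave a log2FC of -0.20, with an SE of 0.061 (adjusted p = 0.0434). Of 8 other settings that kept all libraries and tested against no change, 5 lost the call, as did leaving out MTC replicate 2 or any MTC-R library, with adjusted p from 0.0596 to 0.176.

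The elastic fibre, microfibril and fibulin genes formed the largest group that could be followed, with 9 of 12 tested, 2 higher and 4 lower. Among them are 4 genes for the latent TGF-beta binding proteins, large microfibril-associated glycoproteins; 1 of this family rose, 2 fell and Ltbp4 was not called. Ltbp1 (ENSMUSG00000001870; chromosome 17, 75005568 to 75392512, plus strand), whose product tethers latent TGF-beta to the matrix, was at 67.1, 73.5 and 74.0 CPM in MTC and 30.4, 31.0 and 31.5 CPM in MTC-R. Each MTC-R library had less than the lowest MTC library. Its log2FC was -1.21 (SE 0.074 and adjusted p = 5.66e-05).

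Ltbp2 (ENSMUSG00000002020; chromosome 12, 84783212 to 84876532, minus strand), the member of the family that does not bind latent TGF-beta, moved the opposite way. It was at 22.3, 29.7 and 25.2 CPM in MTC and 70.4, 73.2 and 78.1 CPM in MTC-R. Each MTC-R library exceeded each MTC library. The change amounted to a log2FC of 1.52, with an SE of 0.12 (adjusted p = 0.000151). Per length, that is as counts per kb of exon scaled to the same total in every library, the ratio of Ltbp2 to Ltbp1 was 0.434, 0.528 and 0.445 in MTC and 3.02, 3.08 and 3.24 in MTC-R, so Ltbp1 led in every MTC library and Ltbp2 in every MTC-R library.

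Ltbp3 is another binder of latent TGF-beta and the most abundant of the family. It fell from 228.4 ± 5.34 to 146.6 ± 1.62 CPM (SD, n = 3 each), with a log2FC of -0.64 (SE 0.054 and adjusted p = 0.000226). Ltbp4 was at 27.9 to 33.0 CPM in MTC and 32.0 to 33.2 CPM in MTC-R, with a log2FC of 0.08 (SE 0.088 and adjusted p = 0.523). Summed per length, the family stood at 118.0 to 133.0 in MTC and 109.9 to 116.4 in MTC-R.

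**Figure D4:**
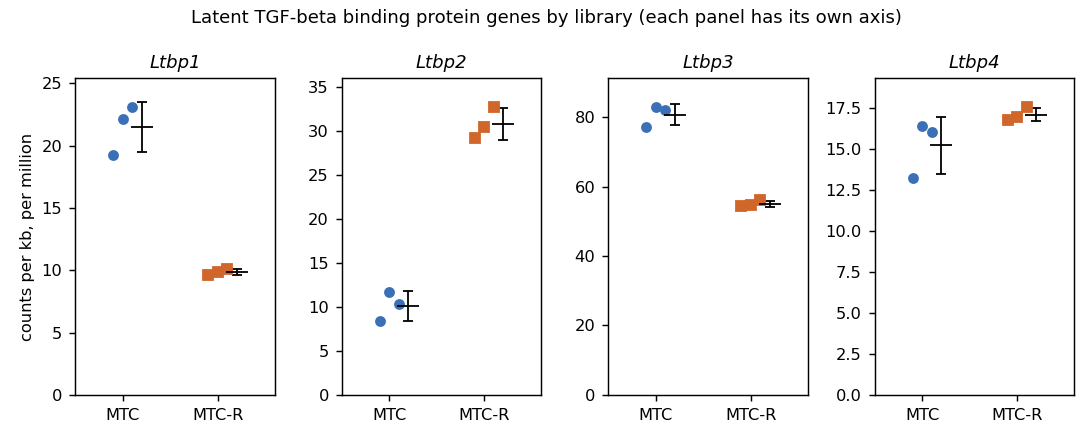
Level per length (TPM, counts per kb of exon scaled to the same total in every library) of Ltbp1, Ltbp2, Ltbp3 and Ltbp4 in each library (circles MTC, squares MTC-R), with the mean and SD of 3 libraries as a black bar; each panel has its own axis from 0. Ltbp1 drops from 19.2 to 23.1 in MTC to 9.64 to 10.1 in MTC-R, and Ltbp2 climbs from 8.34 to 11.7 to 29.1 to 32.7.

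The fibulins, glycoproteins of elastic fibres and basement membranes, also split. Fbln1 (ENSMUSG00000006369; chromosome 15, 85205949 to 85286535, plus strand), for fibulin-1, gave 10, 7 and 12 counts in MTC against 33, 28 and 46 in MTC-R. These were 0.531, 0.361 and 0.577 CPM against 1.41, 1.26 and 2.73 CPM, without overlap, and MTC-R replicate 3 was the highest. The log2FC was 1.83, with an SE of 0.41 (adjusted p = 0.0141), and without MTC replicate 2 the adjusted p was 0.0623.

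Fbln2 (ENSMUSG00000064080; chromosome 6, 91212455 to 91272540, plus strand), for fibulin-2, was the most abundant fibulin. It was at 382.1, 392.4 and 369.5 CPM in MTC and 376.4, 383.5 and 372.4 CPM in MTC-R. The ranges overlapped throughout. Its log2FC was -0.01 (SE 0.054 and adjusted p = 0.858), and its sign changed with the scaling. Fbln5, for fibulin-5, had 21 to 25 counts in MTC and 7 to 18 in MTC-R, and its log2FC of -0.85 was not called (SE 0.31, adjusted p = 0.0756).

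Efemp1 (ENSMUSG00000020467; chromosome 11, 28853204 to 28926743, plus strand) encodes fibulin-3. It was at 117.8, 129.4 and 131.1 CPM in MTC and 94.5, 96.8 and 90.7 CPM in MTC-R. All MTC-R libraries were lower. The fitted log2FC was -0.42, with an SE of 0.069 (adjusted p = 0.00403).

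Efemp2 (ENSMUSG00000024909; chromosome 19, 5473954 to 5482517, plus strand) encodes fibulin-4, which elastic fibre assembly requires. It was at 8.02, 9.23 and 7.45 CPM in MTC and 4.23, 4.01 and 3.03 CPM in MTC-R. The lines did not overlap. This gave a log2FC of -1.12, with an SE of 0.17 (adjusted p = 0.00268). Its exons share 173 bases with Mus81 on the opposite strand. The fibrillin and emilin genes were low, Fbn1 with counts of 3, 3 and 9 in the parent against 10, 26 and 12 in the resistant line, Emilin1 with 3 to 9 and Fbn2 with 0 throughout. Fbn1 was not among the tested genes; with no filter its log2FC was 1.58 (SE 0.57 and adjusted p = 0.0767), and without MTC replicate 3 it was called higher.

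**Figure D5:**
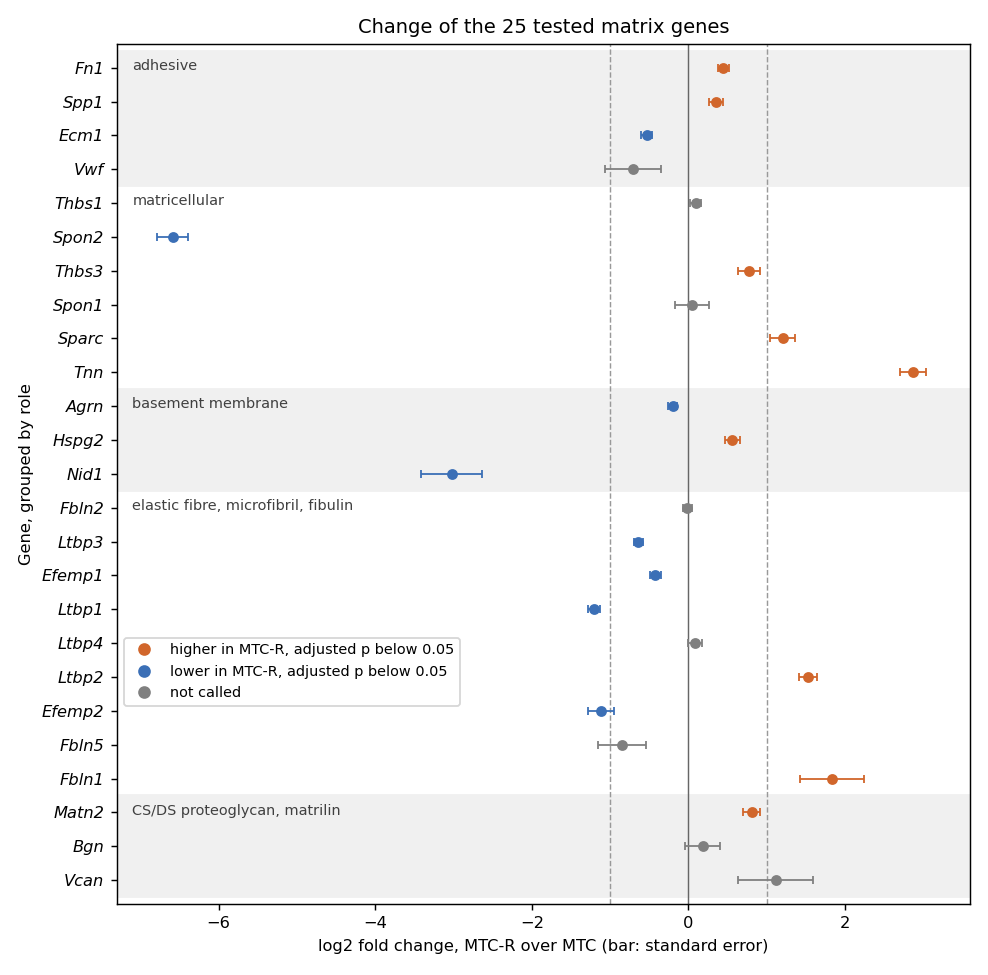
Log2FC (MTC-R over MTC) of each of the 25 tested matrix genes with its SE, in bands by role, with dashed lines at -1 and 1. Orange points were higher (9 genes) and blue points lower (8 genes) at an adjusted p below 0.05, and each band except the last holds points of both colours.

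Of the chondroitin and dermatan sulfate proteoglycans and matrilin 3 of 5 genes were tested. Matn2, for a filament-forming adaptor of the matrix, rose from 15.6 ± 1.42 to 27.3 ± 2.07 CPM (SD, n = 3 each), with a log2FC of 0.81 (SE 0.10 and adjusted p = 0.00154). Its exons share 70 bases with 9430069I07Rik on the opposite strand. Vcan, for the large proteoglycan versican, had 2 to 10 counts in MTC and 14 to 18 in MTC-R. It did not overlap between the lines, but its log2FC of 1.11 was not called (SE 0.48, adjusted p = 0.122). Bgn, for biglycan, had 22 to 37 counts and a log2FC of 0.18 (SE 0.22 and adjusted p = 0.569). Dcn, for decorin, had 2 to 16 counts and Lum, for lumican, 0 to 3.

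Per length the order of the members was led by Spp1, at 2138 TPM (counts per kb of exon, scaled to an equal total) on average in MTC and 2891 in MTC-R, then Thbs1 at 1238 and 1398 and Fn1 at 633 and 916. Fbln2, Efemp1 and Agrn followed, at 108 to 197 on average over the 6 libraries. Spp1 thus stood highest per length. In raw counts Fn1 led in every MTC-R library and in MTC replicate 2, and Thbs1 led in MTC replicates 1 and 3. These 6 genes held 92.6% to 93.2% of the set's counts in MTC and 94.6% to 94.8% in MTC-R.

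Genes that act with these proteins were described from lists of their receptors, partners and enzymes, each beside the shares of all tested genes, 14.1% higher and 15.6% lower. Of 26 receptor genes 21 were tested, 4 higher and 6 lower, with a median log2FC of 0.03. Those with the largest changes were the heparan sulfate proteoglycan receptors Sdc2 (1.67, adjusted p = 8.31e-05) and Sdc3 (-1.47, adjusted p = 0.000183), the endocytic receptor Lrp1 (-1.26, adjusted p = 0.00262) and Itgb6 (-1.04, adjusted p = 0.000518), the beta chain of an integrin that activates latent TGF-beta. The list of latent TGF-beta and its regulators had 11 of 14 genes tested, 4 higher and 3 lower, with a median of 0.29; Ltbp1 to Ltbp4 are among its genes. Outside the binding proteins, Inhba, for an activin chain, had a log2FC of 1.56 (adjusted p = 0.00555). Beyond 1 on the log2 scale at the adjusted limit, 2 genes of this list were higher and 2 lower. The lower ones were Ltbp1 and a gene outside the binding proteins.

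Among 41 genes of glycosaminoglycan chain assembly 31 were tested, 8 higher and 6 lower, with a median log2FC of 0.04. Sulf2, for an enzyme that removes sulfate groups from heparan sulfate outside the cell, was counted 2, 0 and 1 times in MTC against 61, 56 and 47 times in MTC-R, a ratio of 51.7 from pooled counts with an exact 95% interval of 17.4 to 253. Papss2, for an enzyme that makes the sulfate donor, had a log2FC of -2.69 (adjusted p = 0.000432), Chst3, for a chondroitin sulfotransferase, of 1.97 (adjusted p = 0.000192), and Dse, for dermatan sulfate epimerase, of 1.20 (adjusted p = 0.000747). Of 22 crosslinking and secretion enzymes 17 were tested, 5 higher and 4 lower, with a median of 0.29. They included the crosslinking transglutaminase Tgm2 (-1.81, adjusted p = 3.81e-05), the secretory kinase Fam20c (-1.30, adjusted p = 3.82e-05), the lysyl hydroxylase Plod2 (1.23, adjusted p = 0.000126) and the procollagen protease Bmp1 (-0.57, adjusted p = 0.00155).

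Further matrix families were counted in the same way. Of 77 glycoprotein and proteoglycan genes outside the 42, the 4 syndecans again included, 28 were tested, 10 higher and 11 lower, with a median of 0.11. Tinag (-3.28, adjusted p = 0.000241), Emilin2 (3.16, adjusted p = 0.000301), Ccn4 (-2.68, adjusted p = 0.0143) and Mgp (2.49, adjusted p = 0.0073) had the largest changes. Of 44 collagen genes 17 were tested, 8 higher and 3 lower, with a median of 0.33. Of 11 laminin genes 7 were tested, 1 higher and 4 lower, with a median of -0.26. The difference between these families was not tested.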

How the data were processed

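RNA of 3 MTC and 3 MTC-R libraries was measured by poly-A selected sequencing. Per the labels and methods, the authors used fastp 0.22.0 to filter reads and HISAT2 to map them, and deposited raw counts per gene, neither normalized nor pooled; the counting tool, its use of strand, the annotation and the genome build are not given in the sources used here. The 6 sample tables equalled the series table. The 42 members and all lists were chosen with earlier results of these data known. Counts were scaled by TMM, filtered with filterByExpr at a minimum count of 10, and compared between the lines for 11795 genes in edgeR 4.0.16 (robust glmQLFit, glmQLFTest, R 4.3.3) without covariates, with Benjamini-Hochberg adjustment over all tested genes. Each standard error is the log2 fold change divided by the square root of F. An exact permutation test of 3 against 3 cannot give a p below 0.1 and was not used. Levels per length used the exon length of GENCODE M21 by Ensembl identifier. On simulated data, 95% of 200 genes changed by 1.5 on the log2 scale were recovered among 11763 genes, and 8.65% of calls were false. The simulation gave both lines the same dispersion and changed only genes above 1 CPM. In the data the biological coefficient of variation was 17.9% in MTC and 3.01% in MTC-R, so these rates may not hold for the calls here. Alternatives were DESeq2 1.42.0, other scalings and filters, a replicate block, a GC and length correction, glmTreat and leaving out each library. Members in full are those past an adjusted p of 0.05 with an absolute log2 fold change above 1, the 6 highest per length, and Fn1, Spp1, Tnn, Thbs3 and Hspg2, listed by name; each further list names up to 4 called genes with the largest change, and some items are not reported here. Reads carry no molecular identifiers, so intervals cover counting error alone.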

Additional observations from a re-analysis of the deposited data

How the results depend on the processing

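With glmTreat, which tests against a log2 fold change of 1, 2 members were called higher (Tnn and Ltbp2) and 2 lower (Spon2 and Nid1). Requiring 10 counts in every sample left 2 members lower by the rule of the study, Ltbp1 and Efemp2, since Spon2 and Nid1 were then not tested. Under the settings other than glmTreat with all libraries the calls at the adjusted limit stood at 8 to 9 higher and 6 to 8 lower members, and by the rule of the study at 3 to 6 and 2 to 4. Over all genes these settings called 1256 to 2542 higher and 1620 to 2297 lower at the adjusted limit. By the rule of the study all genes were counted in the main fit only. Setting glmTreat aside, Fn1, Hspg2, Ltbp2, Matn2, Sparc, Thbs3 and Tnn were called higher (7 members) and Ecm1, Efemp1, Efemp2, Ltbp1 and Ltbp3 lower (5 members) under every setting, with or without any library. Fbn1, Vcan and Fbln5 passed a limit under some settings. Leaving out 1 library gave 7 to 10 higher and 7 to 9 lower members at that limit, and 4 to 6 and 3 to 5 by the rule of the study. The sign of Fbln2 turned with library size alone (0.0238), with the GC and length correction (0.0122), with that correction and a replicate block (0.0127) and without MTC replicate 2; leaving out libraries gave -0.0895 to 0.0055. Over all genes, the number called was 803 to 3020 higher and 1077 to 3227 lower when a library was left out, highest without MTC replicate 3 and lowest on each side without an MTC-R library, and 934 and 1222 without MTC replicate 2; glmTreat called 138 and 255. With a replicate block 9 members were higher and 7 lower, beside 1787 and 1717 of 11795 genes. Agrn was the call lost (adjusted p = 0.0596), and by the rule of the study 4 members were higher and 4 lower. The deviations of same-numbered libraries correlated at 0.15, -0.02 and 0.17, and 2 of the 3 MTC libraries correlated best with the MTC-R library of the same number, so the numbers were not taken to pair the samples. The 17 members left out by the filter had 0 to 26 counts per library. With no filter 40 of the 42 members were tested, with 9 higher and 7 lower, beside 1605 and 1841 of 16126 genes.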
